A study of Mus musculus with 26 samples.

Results

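Bc1 and 6 further small noncoding RNAs that RNA polymerase III makes (Rn7sk, Rmrp, Rpph1, Rny1, Rny3 and Vaultrc5) were followed across RNA sequencing libraries of mouse motor neuron spheroids. Bc1 was chosen by its measured level at low intensity against control in an earlier look at these data. The others were chosen for the polymerase that makes them, also with earlier results of these data known. All 7 were matched by gene symbol to 8 of 56941 rows of the tables, since Rmrp has 2 rows. Of the 8 rows, 6 passed a filter on low counts and entered the gene-wise fit of 14730 genes. The Rmrp row annotated as a ribozyme had 1 count in all libraries together, and Vaultrc5 had 0 to 4 counts per library. Both are given as counts only.

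HBG3 mouse embryonic stem cells, in which the Hb9 (Mnx1) promoter of motor neurons drives GFP, were the source of all spheroids. The line's genotype is labelled only as heterozygous blastocysts. All groups were differentiated with retinoic acid and purmorphamine, received ciliary and glial derived neurotrophic factors, and were seeded on fibrin at about day 8. On an array of silicone with magnets, spheroids were moved at 4 Hz for 30 min per day (actuated array, 4 libraries) or never moved (static array, 4 libraries). In the biochemical arm the groups are labelled high intensity (6 libraries), low intensity (6 libraries) and biochemical control (6 libraries). The design text describes medium from optically stimulated or unstimulated muscle under other sample names, so intensity is used here only as a label. Nothing states whether replicates were separate cultures, so p-values measure the spread between these libraries, which may be technical.

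RNA polymerase III transcribes short untranslated RNAs that serve in splicing, RNA processing, protein targeting and control of transcription. Bc1 is made in neurons, is carried into dendrites and represses the start of translation. Rn7sk (7SK RNA) holds the elongation factor P-TEFb inactive. Rpph1 and Rmrp are the RNA parts of RNase P, which trims transfer RNA precursors, and of RNase MRP, which cuts ribosomal RNA precursors. Rny1 and Rny3 are Y RNAs, which bind the Ro60 protein, and Vaultrc5 is a vault RNA, part of the vault particle.

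Sequences are shown for Bc1 and Rpph1, which had the largest log2 differences from control at low intensity, and for the pair of Y RNAs, which resemble each other. They are from GENCODE M21 (GRCm38), read 5′ to 3′ as DNA. The build behind the deposited tables is not given with its role in the sources used here, so the coordinates belong to GENCODE M21 alone. Bc1 (ENSMUSG00000115783) lies at chr7:144914470-144914637 on the plus strand, annotated as a long noncoding RNA. Capitals in it mark a match to the A box at bases 14 to 24 and a match to the B box core at bases 57 to 66, the internal promoter elements of polymerase III genes of the transfer RNA type. The 2 matches do not overlap.
Bc1: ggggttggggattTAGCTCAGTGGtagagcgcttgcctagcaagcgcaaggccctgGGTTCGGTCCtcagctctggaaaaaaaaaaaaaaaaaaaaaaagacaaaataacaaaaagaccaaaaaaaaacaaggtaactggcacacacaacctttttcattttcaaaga
Among 11341 distinct annotated transcripts of 100 to 350 bases, 2.53% held the B box core and 0.917% the A box on either strand, and 2 held both on their own strand. None of Rpph1, Rmrp, Rny1, Rny3 and Rn7sk held either match on either strand. Rpph1 (ENSMUSG00000092837, a ribozyme gene) is on the minus strand, and its first 300 of 319 bases, chr14:50807468-50807767, are shown. Capitals mark a 21-base run that occurs back to back, from bases 182 and 203.
Rpph1: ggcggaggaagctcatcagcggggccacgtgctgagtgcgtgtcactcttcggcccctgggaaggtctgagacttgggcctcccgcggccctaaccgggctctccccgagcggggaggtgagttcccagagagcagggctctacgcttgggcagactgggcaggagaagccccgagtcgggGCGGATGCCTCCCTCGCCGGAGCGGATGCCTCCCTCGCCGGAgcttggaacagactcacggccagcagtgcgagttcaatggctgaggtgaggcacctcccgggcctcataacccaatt
Rny1 (ENSMUSG00000065701, chr6:47788069-47788180, minus strand) and Rny3 (ENSMUSG00000064945, chr6:47781624-47781725, plus strand) were identical at 71.4% of aligned positions. Capitals mark their longest shared run of 12 bases.
Rny1: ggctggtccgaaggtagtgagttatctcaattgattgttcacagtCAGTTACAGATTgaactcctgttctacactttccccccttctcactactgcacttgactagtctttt
Rny3: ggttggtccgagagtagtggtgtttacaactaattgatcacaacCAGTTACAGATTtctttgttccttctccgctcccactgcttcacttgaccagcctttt
The 2 Rmrp rows are nested: the 271-base ribozyme transcript lies whole within the 281-base long noncoding transcript from its base 6. How the authors' counting divided reads between them is not given in the sources used here, and all Rmrp values below are of the long noncoding row.

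Of the 26 libraries, 21 had at least 1000000 counts on protein-coding genes and carry the comparisons below, called the deeper libraries. They held 2273487 to 3771637 counts in the controls (n = 5), 1551334 to 3602716 at low intensity (n = 5), 2408099 to 3971348 at high intensity (n = 4), 7724923 to 13162635 on the static array (n = 3) and 7269276 to 9839951 on the actuated array (n = 4). The 5 shallow libraries were control replicate 4 with 75.7% of its counts on rRNA, low-intensity replicate 6 with 1536 counts in all, replicate 3 of the static array and replicates 4 and 5 of high intensity. The neuron label was checked against 10 neuron markers, of which 10 had a mean of at least 1 CPM in every group. Of 6 skeletal muscle markers, Myod1 and Myog were at 0 in the controls. In the same list 3 had a mean of at least 1 CPM in the controls and 5 at high intensity. All 6 markers of astrocytes and radial glia reached that mean in the controls, so markers of other cell types were also present. Levels are CPM (counts divided by the library total, per 1000000, and scaled by edgeR's TMM factors) unless TPM (which also corrects for length) is named. Differences are edgeR log2 fold changes with their standard error (SE), called at a Benjamini-Hochberg adjusted p under 0.05 over all 14730 genes.

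Bc1 was highest in the controls and lowest at low intensity. It was singled out because of its level in low intensity against control, so its differences from and between the biochemical groups are described without a test. Control replicates 1, 2, 3, 5 and 6 had 705, 1825, 1035, 216 and 984 CPM. Low-intensity replicates 1 to 5 had 86.3, 94.8, 122, 240 and 294 CPM. Only control replicate 5 lay within the low-intensity range, and the other 4 controls were above all 5 low-intensity libraries. High-intensity replicates 1, 2, 3 and 6 had 125, 397, 514 and 70.2 CPM, so this group held both the lowest library of all and libraries above every low-intensity one.

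Bc1's log2 fold change was -2.52 (SE 0.52) at low intensity against control, from 953 ± 586 CPM (SD, n = 5) to 167 ± 93.9 CPM (SD, n = 5). It was -1.79 (SE 0.55) at high intensity against control and 0.72 (SE 0.53) at high against low intensity. The values of the groups overlapped in each of these comparisons. In bulk libraries fewer cells of a type and less RNA per cell cannot be told apart. In the shallow libraries Bc1 had 414 CPM in control replicate 4 and 1314 and 1107 CPM in high-intensity replicates 4 and 5, without TMM scaling. The last pair were above every deeper high-intensity library. Low-intensity replicate 6 had 0 counts, where a count of 0 allows up to 1953 CPM (3 counts), so its level was not detectable at that depth.

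On the arrays Bc1 was between the low-intensity and control medians. Static-array replicates 1, 2 and 4 had 276, 587 and 347 CPM, and actuated replicates 1 to 4 had 148, 165, 511 and 299 CPM. The log2 fold change was -1.24 (SE 0.59) for static array against control, where the groups overlapped through control replicate 5. Actuation was the 1 contrast in which Bc1 was tested: the log2 fold change was -0.52 (SE 0.58), with an adjusted p of 1 by edgeR's quasi-likelihood test, smaller than its own error and with overlapping groups.

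**Figure D1:**
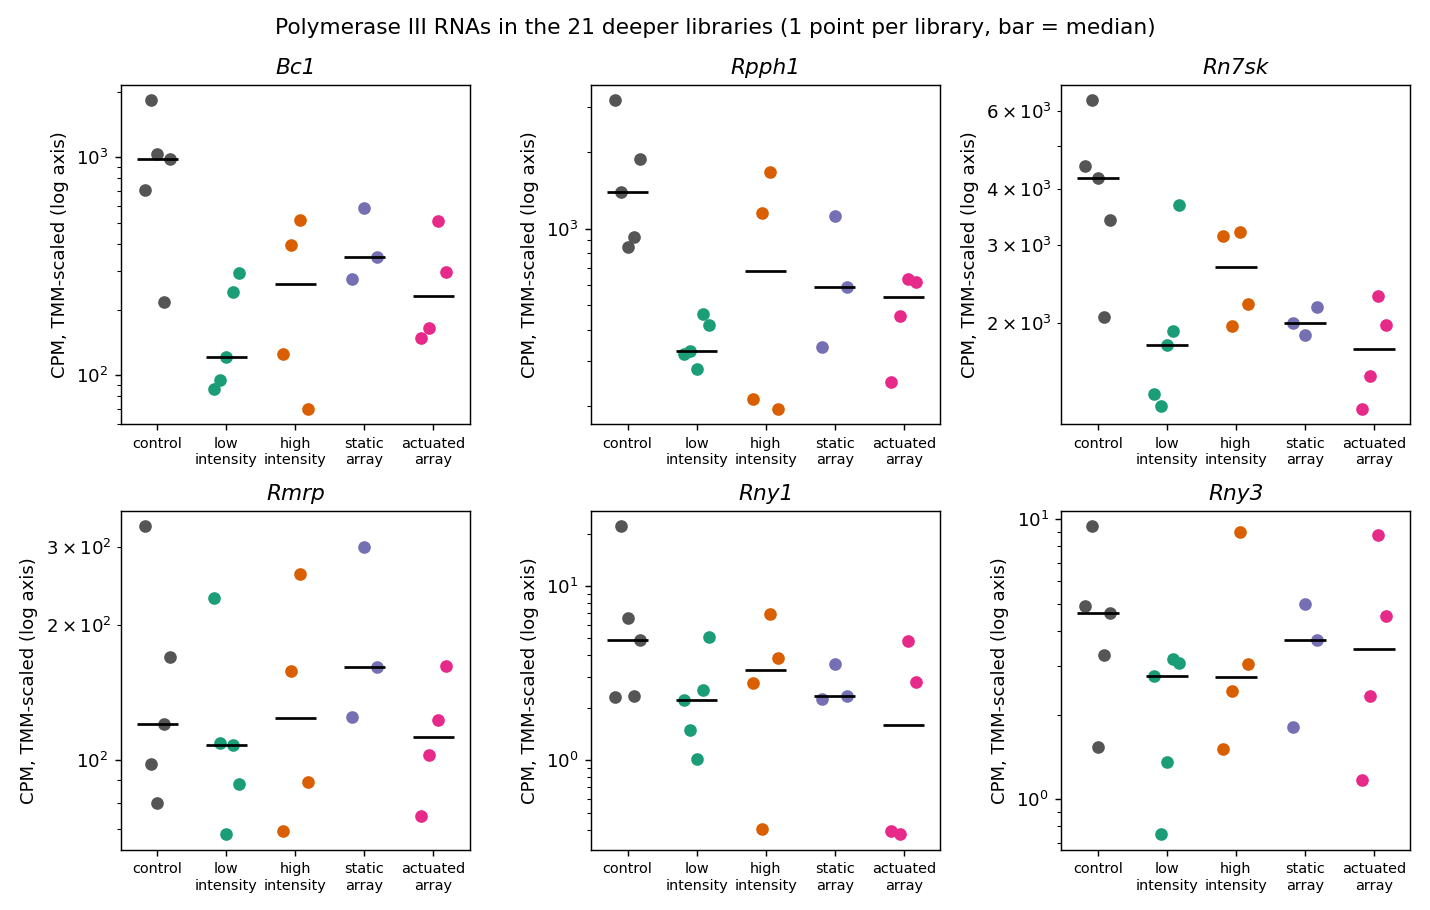
CPM scaled by TMM (log axis) of 6 polymerase III RNAs in the 21 deeper libraries by group, 1 point per library, bars at group medians. Bc1 and Rpph1 sit lower at low intensity than in all controls except, for Bc1, control replicate 5 at 216 CPM, while Rmrp groups overlap throughout.

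Rpph1 was the 1 member called in any comparison, and only in low intensity against control. It had 3199, 1397, 847, 930 and 1882 CPM in control replicates 1, 2, 3, 5 and 6, and 322, 330, 280, 460 and 416 CPM in low-intensity replicates 1 to 5. The 2 groups did not overlap. Rpph1 fell at low intensity by 2.19 on the log2 scale (SE 0.48), from 1651 ± 959 CPM (SD, n = 5) to 361 ± 73.8 CPM (SD, n = 5), with an adjusted p of 0.0370 by edgeR's quasi-likelihood test. Of all 14730 genes, 0.971% did not overlap and were lower in this comparison, while 0.597% were called in either direction and 0.156% were called lower. Of the 5 members tested there, 1 was called and 3 had an unadjusted p under 0.05, as did 15.2% of all genes. This is the comparison by which Bc1 was chosen. Rpph1 also followed Bc1 over the 21 deeper libraries (Pearson's r of log2 CPM 0.83), so its call is not independent of that choice.

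That call rested on the setting and on single libraries. It was lost with all 26 libraries (adjusted p = 0.164) and in limma's voom fit with quality weights (adjusted p = 0.131), where the log2 fold changes were -2.49 and -2.16. A replicate block in edgeR also ended it (-2.51, adjusted p = 0.0937). Leaving out control replicate 1 (adjusted p = 0.0750), control replicate 2 (0.0525), low-intensity replicate 1 (0.115), replicate 2 (0.0738) or replicate 5 (0.0778) in edgeR also ended it, while the log2 fold change stayed between -2.36 and -1.81 over all 21 such fits.

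High-intensity replicates 1, 2, 3 and 6 had 213, 1154, 1668 and 195 CPM of Rpph1, a wider range than at low intensity. Replicates 2 and 3 were within the control range and replicates 1 and 6 were below every control and every low-intensity library. The log2 fold change was -1.04 (SE 0.49, adjusted p = 0.302 by edgeR) against control and 1.16 (SE 0.48, adjusted p = 0.600) against low intensity. Static-array replicates 1, 2 and 4 had 342, 1119 and 588 CPM, and actuated replicates 1 to 4 had 249, 453, 634 and 618 CPM. The arrays overlapped each other and, through static replicate 2, the controls. Static array against control gave -1.27 (SE 0.55, adjusted p = 0.322 by edgeR), and actuated against static -0.48 (SE 0.54, adjusted p = 1).

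Rmrp, whose particle shares protein subunits with that of Rpph1, was not called in any comparison. Its means were 160 ± 103 CPM in the controls (SD, n = 5), 121 ± 63.5 at low intensity (SD, n = 5), 144 ± 86.3 at high intensity (SD, n = 4), 195 ± 92.1 on the static array (SD, n = 3) and 116 ± 36.7 on the actuated array (SD, n = 4). Groups overlapped in all 5 comparisons. Against control the log2 fold change was -0.41 (SE 0.38) at low intensity, -0.17 (SE 0.41) at high intensity and 0.28 (SE 0.43) on the static array, with adjusted p-values of 0.663, 0.887 and 0.846 by edgeR. Each of these changed sign when 1 library was left out. Actuated against static array gave -0.76 (SE 0.45, adjusted p = 1 by edgeR).

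Rn7sk had a mean 2.04-fold lower at low intensity than in the controls and missed the threshold. Control replicates 1, 2, 3, 5 and 6 had 4502, 6327, 4248, 2062 and 3409 CPM. Low-intensity replicates 1 to 5 had 1387, 1308, 1789, 1919 and 3692 CPM. The groups overlapped only through low-intensity replicate 5, which was above control replicates 5 and 6. The log2 fold change was -1.03 (SE 0.26, adjusted p = 0.0582 by edgeR). It passed with DESeq2 (adjusted p = 0.0422), and in edgeR without control replicate 5 (0.0372), low-intensity replicate 5 (0.0155) or high-intensity replicate 3 (0.0482). Without the last, which is in neither group, the unadjusted p of Rn7sk was 0.000566 against 0.000534 as reported, while the number of all genes called went from 88 to 221.

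High-intensity replicates 1, 2, 3 and 6 had 3138, 1972, 3202 and 2212 CPM of Rn7sk. Static-array replicates 1, 2 and 4 had 2002, 1879 and 2180 CPM, and actuated replicates 1 to 4 had 1288, 1522, 2309 and 1984 CPM. Only control replicate 5 fell within the static range. The log2 fold change against control was -0.64 (SE 0.27, adjusted p = 0.242 by edgeR) at high intensity and -1.02 (SE 0.31, adjusted p = 0.122) on the static array. High against low intensity gave 0.38 (SE 0.27, adjusted p = 0.787 by edgeR), and actuated against static array -0.19 (SE 0.31, adjusted p = 1).

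The Y RNAs were near the limit of detection. Rny1 had 1 to 63 and Rny3 2 to 80 counts per deeper library, and group means were 2.11 to 7.64 CPM for Rny1 and 2.22 to 4.76 CPM for Rny3. Both had their highest group mean in the controls. For Rny1 control replicate 2 alone had 22.1 CPM against 2.30 to 6.54 in the other 4. At low intensity against control the log2 fold change was -1.62 (SE 0.77, adjusted p = 0.321 by edgeR) for Rny1 and -1.11 (SE 0.65, adjusted p = 0.435) for Rny3. Without control replicate 2 that of Rny1 was -0.70 (adjusted p = 0.705). Neither was called in any comparison. Vaultrc5 had 0 counts in 10 of the 21 deeper libraries, and no fold change is given for it.

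Counts of calls over the other comparisons were 0. At high intensity against control, 0 of 5 members tested were called, beside 0.462% of all genes, and 2 had an unadjusted p under 0.05, as did 15.9% of all genes. For static array against control the count was 0 of 5, beside 0.713% of all genes, with 2 under 0.05 unadjusted beside 12.6% of all genes. High against low intensity gave 0 of 5, beside 0% of all genes, with 1 under 0.05 unadjusted beside 7.68% of all genes. Actuated against static array gave 0 of 6, beside 0% of all genes, with 0 under 0.05 unadjusted beside 0.380%. DESeq2 and voom also called 0 members in these 4 comparisons. In low intensity against control all 5 tested members had a log2 fold change below 0, where 50.9% of all genes did. The comparisons with the control share its libraries.

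**Figure D2:**
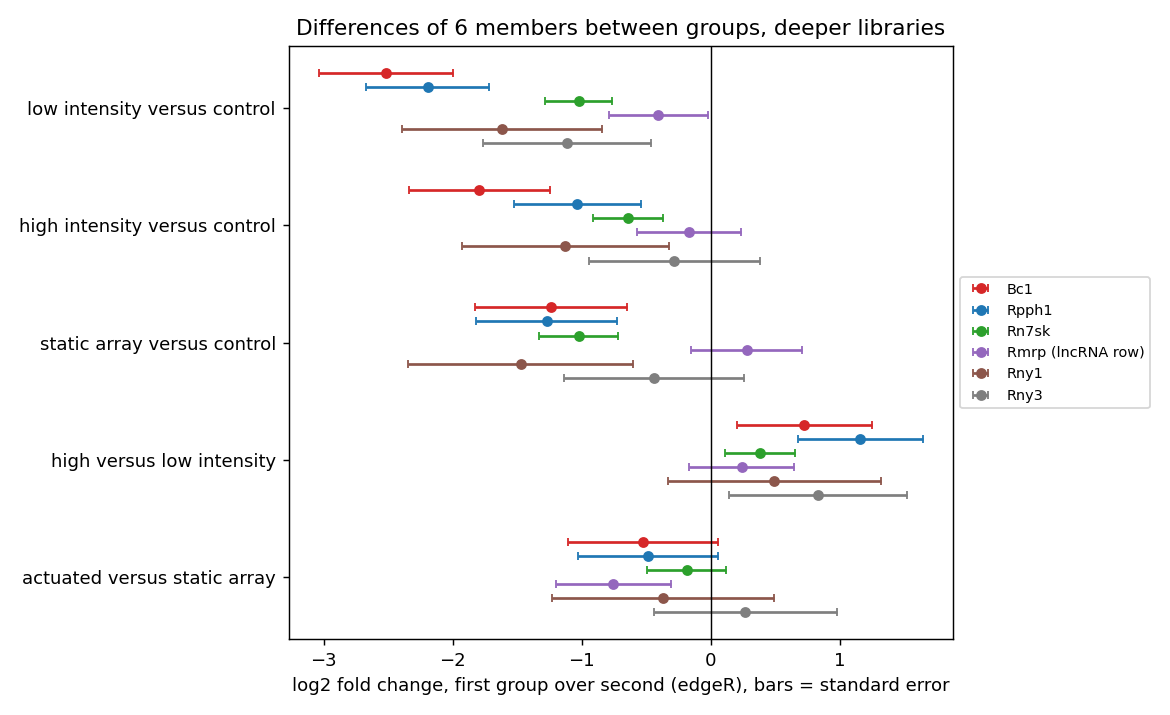
Log2 fold changes from edgeR (first group over second) of 6 members in 5 comparisons, with bars of 1 SE on either side. Rpph1 at low intensity against control (-2.19) is the only called difference, and Bc1 in the comparisons other than actuation is shown as a description.

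Rows annotated misc_RNA, the biotype that holds Rn7sk, the Y RNAs and Vaultrc5, took 3.08% to 10.1% of all counts in the deeper controls and 1.19% to 2.46% at low intensity, with no overlap. The means were 5.69 ± 2.75% (SD, n = 5) and 1.59 ± 0.539% (SD, n = 5). The difference of -4.09 percentage points had p = 0.00794 in a two-sided exact permutation test, the smallest that 5 against 5 libraries can give, and 0.0397 after Benjamini-Hochberg adjustment over 5 comparisons. Low intensity against control is also the comparison by which Bc1 was chosen. The rows that held most of this share followed Bc1 from library to library (below), so that p-value is not independent of the choice. High intensity was at 2.75 ± 1.66% (SD, n = 4), the static array at 2.83 ± 0.979% (SD, n = 3) and the actuated array at 2.08 ± 0.984% (SD, n = 4). The other 4 comparisons had adjusted p-values of 0.179 to 0.343 in exact permutation tests, and actuated against static array could not go below an unadjusted 0.0571.

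Nearly all of this share was 7SL RNA, the RNA of the signal recognition particle, which polymerase III also makes. Of 562 misc_RNA rows 131 had a count. Rn7s1 held 48.8% of their counts, Rn7s2 43.0%, Rn7sk 7.94%, Rn7s6 0.128% and Gm26461 0.0877%. In GENCODE M21 Rn7s1 and Rn7s2 are identical over 300 of 300 bases, and Rn7s1's part of their sum ran from 16.2% to 95.8% across the deeper libraries. Their split is therefore uncertain and the sum is used. It took 2.88% to 9.68% of counts in the controls and 1.04% to 2.10% at low intensity.

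**Figure D3:**
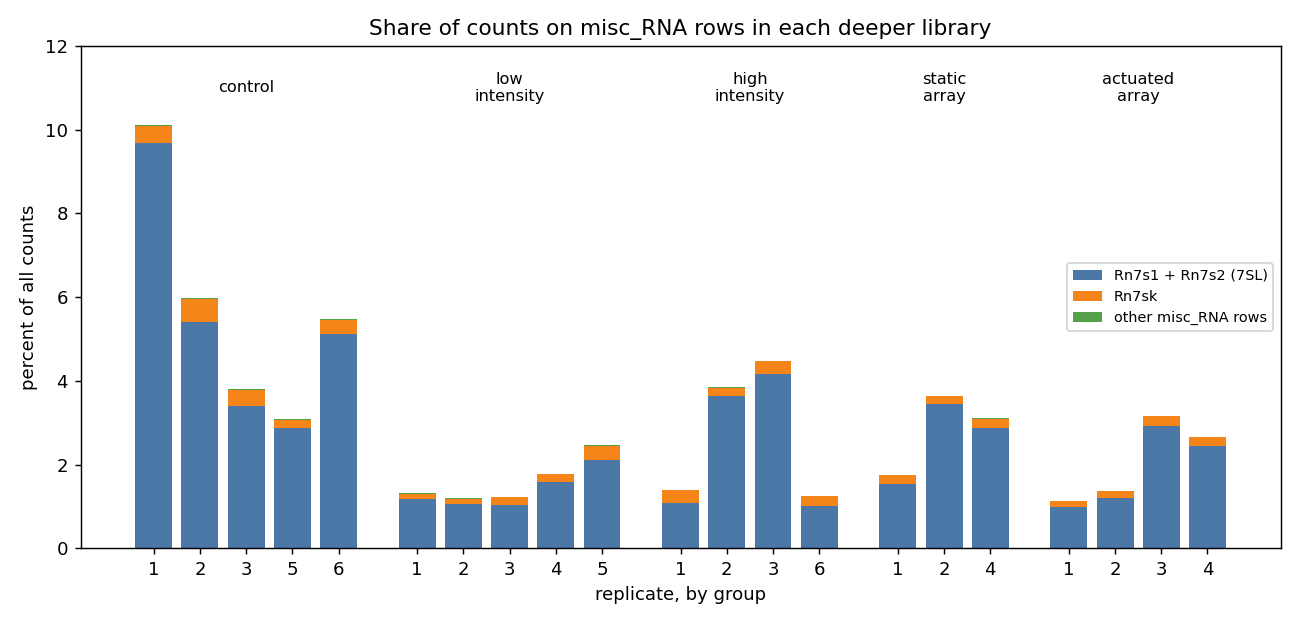
Percent of all counts on misc_RNA rows in each deeper library by group, stacked as Rn7s1 plus Rn7s2, Rn7sk and other rows. The 5 controls reach 3.08% to 10.1% and the 5 low-intensity libraries 1.19% to 2.46%, and 7SL makes up most of each bar.

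Bc1 and Rpph1 followed the 7SL sum from library to library. Over the 21 deeper libraries Pearson's r of log2 CPM with the 7SL sum was 0.96 for Rpph1, 0.89 for Bc1 and 0.73 for Rn7sk, and 0.92, 0.81 and 0.51 after group means were removed. Rmrp and Rn7sk had r = 0.05. These are descriptions: all points share their library's depth and scaling. Per 100 counts of 7SL, Rpph1 had 2.19 to 3.54 counts in the controls and 1.89 to 3.27 at low intensity, and Bc1 had 0.671 to 2.87 and 0.744 to 1.55, so both ratios overlapped between these groups. Rn7sk had 4.29 to 11.1 counts per 100 in the controls and 11.9 to 17.6 at low intensity, and Rmrp had 0.154 to 0.393 and 0.401 to 1.99. These 2 ratios did not overlap and were higher at low intensity, as were those of 56.5% of all genes.

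**Figure D4:**
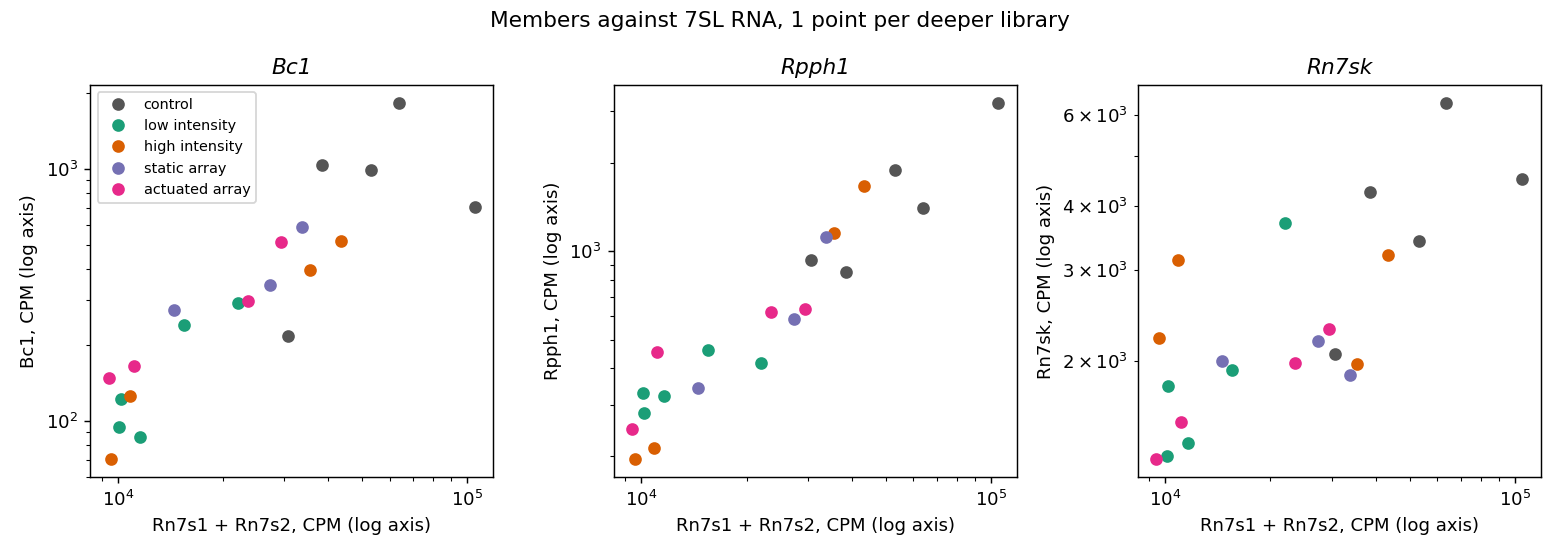
CPM of Bc1, Rpph1 and Rn7sk against that of Rn7s1 plus Rn7s2 (both axes log), 1 point per deeper library, coloured by group. Rpph1 lies closest to a line (r = 0.96), Bc1 less so (0.89) and Rn7sk least (0.73).

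Among 7608 genes with a mean of at least 20 CPM, those most like Bc1 over the 21 deeper libraries were Rpph1 (r = 0.83), Rpl41 (0.78), Rn7s6 (0.76), Gm22513 (0.76) and Rn7sk (0.74). These values include the group difference by which Bc1 was chosen. After group means were removed they were 0.70, 0.83, 0.74, 0.77 and 0.68 in the same order, so that Rpl41, of the ribosome, was then above Rpph1. Those most like Rn7sk were Rab11fip3 (0.89), Hmgn3 (0.86), Gm22513 (0.83), Gfod2 (0.82) and Ubb-ps (0.80), and 0.84, 0.81, 0.75, 0.76 and 0.70 after group means were removed.

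Of 9 rows of other short RNAs in the fit, 0 were called in any comparison, beside 0% to 0.713% of all genes. At low intensity against control 7 of the 9 had a log2 fold change below 0, as did 50.9% of all genes. Among polymerase III RNAs there, Rn7s2 gave -3.09 (SE 0.87, adjusted p = 0.0818 by edgeR) and Rn7s1 -1.72 (SE 0.51, 0.0980), with their split uncertain. Rn7s6 gave -1.59 (SE 0.62, adjusted p = 0.205 by edgeR). The 5S ribosomal RNA rows n-R5s115, n-R5s130 and n-R5s106 gave -1.73, -10.1 and 0.40 (adjusted p = 0.347, 0.110 and 0.944 by edgeR). Of these n-R5s130 had 0 counts in all 5 low-intensity libraries. Among short RNAs of polymerase II, Rnu11, of the minor spliceosome, had 3.74 to 42.4 CPM in the controls and 2.04 to 8.85 at low intensity, with a log2 fold change of -1.95 (SE 0.62, adjusted p = 0.122 by edgeR). Rnu1a1, of the U1 family, had 350 and 877 counts in control replicates 2 and 3, 68 in low-intensity replicate 3 and 0 in the other libraries of these groups (adjusted p = 0.240 by edgeR). Rnu2-10, of the U2 family, had 0 counts in all 5 controls and in 4 low-intensity libraries and 35 counts in low-intensity replicate 3 (adjusted p = 0.342). Both belong to families of near-identical copies, so these counts are uncertain.

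Per length, in TPM, Bc1 and Rn7sk led the members. In the controls the median was 23809 for Bc1 and 20890 for Rn7sk, with overlapping ranges, then 9002 for Rpph1, 1458 for Rmrp and 172 for Rny1. In the other 4 groups Rn7sk came first, with medians of 17499 to 21154, and Bc1 second, with 5361 to 11459. Ranges of Rn7sk and Bc1 overlapped in the controls and on the static array. The length that the TPM implies for Bc1 was a median of 0.249 of that for Rn7sk, against 0.508 for the annotated transcripts (168 and 331 bases). Bc1's TPM is therefore higher than its annotated length would give, and its place above Rn7sk in the controls rests on the shorter length. In CPM, without length, the control means were 953 for Bc1 and 4110 for Rn7sk.

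The TPM scale also moves with these RNAs. Rows of misc_RNA took 30.4% to 63.2% of all TPM in the deeper controls and 13.2% to 22.8% at low intensity, and the median of all genes was then 0.64 higher on the log2(TPM + 1) scale at low intensity than in the controls. On that scale Rpph1 gave -1.35 and Bc1 -1.57, or -1.98 and -2.21 relative to the shift. Rn7sk gave -0.35, or -0.99 relative to the shift.

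The proteins that make or bind these RNAs were measured in a list of 70 genes, all of which passed the filter. None of the 70 was called by edgeR in any comparison. Of all genes, 0.597% were called at low intensity, 0.462% at high intensity and 0.713% on the static array against control. In high against low intensity and actuated against static array 0% were. At such shares few or none of 70 genes would be called, so the 0 is not a result about this list. At an unadjusted p under 0.05 there were 8 in low intensity against control, 8 in high intensity against control, 8 in static array against control, 3 in high against low intensity and 0 in actuated against static array. These are 11.4%, 11.4%, 11.4%, 4.29% and 0% of the list, below the 15.2%, 15.9%, 12.6%, 7.68% and 0.380% of all genes. DESeq2 called 1 in low intensity and 2 in high intensity against control, beside 3.26% and 3.17% of all genes, and 0 in the other comparisons. The list's median log2 fold change at low intensity against control was 0.04, beside -0.01 for all genes.

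By role, 0 of 18 polymerase III subunits, 0 of 11 genes of TFIIIA, TFIIIB and TFIIIC and 0 of 7 of the SNAP complex and its activators were called. The shares of all genes called would also give 0 for lists so short. Maf1, the repressor of polymerase III, was not called either. Mvp, the major vault protein, had the smallest p in both intensity comparisons with control. It was at 26.03 ± 5.85 CPM at low intensity (SD, n = 5) and 28.2 ± 12.1 at high intensity (SD, n = 4) against 11.6 ± 5.49 in the controls (SD, n = 5), with adjusted p-values of 0.0770 and 0.0737 by edgeR. Polr3c, a polymerase III subunit, gave 0.60 (SE 0.23, adjusted p = 0.190 by edgeR) at low intensity. Ro60, which binds the Y RNAs, gave -0.40 (SE 0.14, adjusted p = 0.199 by edgeR) on the static array against control. For actuation Snapc5, of the SNAP complex, had the smallest p, with -0.44 (SE 0.26, adjusted p = 1 by edgeR).

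Other measures also varied between these groups, without a test of the shares and sums. Protein-coding genes took 73.7% to 78.9% of counts in the deeper controls and 81.6% to 86.7% at low intensity, with no overlap. All other ranges below overlapped between control and low intensity. Mitochondrially encoded genes took 11.7% to 17.5% of counts in the deeper controls, 9.09% to 13.2% at low intensity and 7.30% to 8.04% on the static array. The static-array libraries also held more counts than any control, so arm, depth and array cannot be told apart in static array against control. The summed neuron markers were 9218 to 10850 CPM in the controls and 8203 to 10140 at low intensity, and 1 of 10, Elavl4, was lower at low intensity. The summed motor neuron markers were 105 to 162 CPM in the controls and 70.5 to 118 at low intensity, with 0 of 6 tested called and a median log2 fold change of -0.55. Of 6 markers of astrocytes and radial glia, 1 was higher at low intensity, Vim with 1.01 (SE 0.22, adjusted p = 0.0352 by edgeR), and their sum was 2801 to 3868 CPM in the controls and 3369 to 5870 at low intensity. The summed mesenchymal markers were 306 to 856 CPM in the controls and 214 to 2475 at low intensity, with 0 of 6 called. Summed oligodendrocyte markers were 51.9 to 121 CPM in the controls and 46.2 to 260 at low intensity. Summed skeletal muscle markers were 8.46 to 99.7 CPM and 9.54 to 165 CPM, and in each of these 2 lists 0 of 4 tested were called. Of 2 proliferation markers 1 was called higher at low intensity and 2 at high intensity. Against control, 0.597% of all genes were called at low and 0.462% at high intensity. These shares changed when single libraries were left out. The part of these in the members' differences was not tested.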

How the data were processed

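The authors deposited estimated counts (written as whole numbers, used as they stand) and TPM per gene for 26 libraries. Per the labels' protocols, 4 ng of total RNA (full volume for the 8 samples of lowest concentration) was fragmented for 4 min, amplified in 5 and then 15 PCR cycles with rRNA cleavage between, and sequenced as paired 50-base reads. Per the submitters' processing notes BWA 0.7.12-r1039, bedtools 2.25.0, STAR and Salmon were used. Which step each served, and the genome build behind the tables, is not stated there. No molecular identifiers are mentioned, so intervals and floors cover counting error only.

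The 7 members and all gene lists were chosen with earlier results of these data known. The fit used edgeR 4.0.16 (R 4.3.3) on the 21 deeper libraries, with 1 coefficient per group, TMM and filterByExpr. On simulated low-intensity data it was tested for recovery of known changes. The misc_RNA share was compared by exact permutation (scipy 1.17.1). No pair of the 210 pairs of deeper libraries agreed within sampling noise (chi-square per degree of freedom at least 4.74). Named genes were all members, and list genes called or with 1 of the 3 smallest p-values per comparison (a selection of these is printed). Also named were other short RNAs that passed the filter, the 5 largest misc_RNA rows and the 5 genes most like Bc1 and Rn7sk. Other short RNAs with counts that did not pass the filter are not named. Alternatives used DESeq2 1.42.0, limma 3.58.1, other scalings and filters, all 26 libraries, a replicate block, TPM and leaving out each library. Figures used matplotlib 3.10.9.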

Additional observations from a re-analysis of the deposited data

Results flagged for a closer look

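In 5 of 32 groups of 4 or 5 values examined, 1 library stood far from the rest by Dixon's criterion. Its rate of about 1 in 20 by chance holds for normally distributed values. These values were CPM without a log and included counts of 0, so 5 of 32 cannot be set against that rate. Rn7sk was at 3692 CPM in low-intensity replicate 5, above the other 4. Rmrp was at 230 CPM in low-intensity replicate 1. Rny1 was at 22.1 CPM in control replicate 2. Vaultrc5 was at 0.489 CPM in actuated replicate 4 and at 1.26 CPM in low-intensity replicate 4, from 4 and 2 counts.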

How the results depend on the processing

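Members called at low intensity against control numbered 0 with all 26 libraries, voom or a replicate block, 2 with DESeq2 or without a low-count filter, and 0 to 2 when 1 library was left out. Of 10 settings other than the missing filter, 7 kept the Rpph1 call, as did 16 of 21 leave-one-out fits. The 7 include the log2(TPM + 1) and log2(TPM + 0.1) fits, which called 36.9% and 37.6% of all genes. The 5 leave-one-out fits that lost the call each left out a control or low-intensity library. The 16 include every fit that left out a library of neither group compared, so these ratios overstate stability. The replicate block gave Rpph1 -2.51 (adjusted p = 0.0937). Of 14 same-number pairs of libraries, 2 had r above 0.1 in their deviations from group means. Both were pairs of actuated and static libraries (0.144 and 0.182). These correlations cannot show whether replicate numbers pair the libraries, so the lost call with the block is kept as a limit. Without a filter edgeR's prior degrees of freedom were infinite and each gene took the trend variance (0.457 for Rpph1, against 9.12 in the reported fit), so its replicate spread did not enter. That fit called 1 member in actuated against static, and 2 in each of high against control, high against low and static against control. It called 2 machinery genes at high and 1 at low intensity against control. These calls are not read as support.

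DESeq2 called 2 and 1 machinery genes at high and low intensity against control. The log2(TPM + 1) and log2(TPM + 0.1) fits called 13 and 15 at high intensity, 35 and 36 at low intensity and 4 and 5 on the static array against control, all higher, beside all-gene median shifts of 0.53, 0.64 and 0.50 with the first. Leaving out a library gave 0 to 2 at high and 0 to 1 at low intensity. All genes called at low intensity against control numbered 88 as reported, 4 with all 26 libraries, 1 with voom, 8 with the block, 21 with only the groups compared, 471 with DESeq2, 660 without a filter and 5440 on log2(TPM + 1). In that order the 68 at high intensity became 6, 0, 2, 17, 467, 700 and 2324, and the 105 on the static array 2, 151, 36, 42, 381, 459 and 1091. With 1 library left out the 88 ran from 2 (without low-intensity replicate 1) to 264 (without low-intensity replicate 3), the 68 from 0 (several libraries, such as high-intensity replicate 1) to 397 (without high-intensity replicate 6) and the 105 from 18 (without static replicate 4) to 141 (without control replicate 6). Of 21 such fits, 14, 14 and 3 moved the count by over 1.5 times, and the shares of all genes called move with these counts. With DESeq2 and without a filter 5 and 40 were called for actuation and 41 and 126 at high against low, where the reported fit called 0. At high intensity 45 of the 68 were higher, and 78 of 96 with protein-coding library sizes.

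Signs changed for members that were not called. Rny3 gave 0.37 at high intensity against control with all libraries, and 0.46 on both TPM scales. For actuation it gave -0.13 with voom, -0.061 with the replicate block and -0.029 and -0.030 on the TPM scales. On the static array against control it gave 0.35 and 0.36 in TPM. Rmrp gave -0.13 on the static array with all libraries, -0.000953 at high against low with voom and -0.023 in TPM, and 0.33 at high and 0.36 at low intensity against control in TPM. Rn7sk gave 0.027 for actuation in TPM. Relative to the all-gene shift of log2(TPM + 1), Rmrp gave -0.20 at high and -0.28 at low intensity against control and 0.081 at high against low, Rny3 -0.072 at high intensity and -0.15 on the static array against control, and Rn7sk -0.080 for actuation. All of these have the signs of the reported fit once the shift is removed, while Rny3 in actuation (-0.13) does not. With 1 library left out, Rmrp ran from -0.62 to 0.29 (high against control), -0.79 to 0.048 (low against control), -0.21 to 0.62 (high against low) and -0.16 to 0.73 (static against control). Rny3 ran from -0.39 to 0.61 (actuation) and -1.04 to 0.11 (high against control), Rny1 from -0.036 to 0.96 (high against low) and Rpph1 from -0.80 to 0.069 (actuation). The cause of the other sign changes was not tested.

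The misc_RNA difference at low intensity against control ran from -4.75 to -2.99 points with 1 library left out. All 10 such adjusted p-values were 0.0794, the smallest that 4 against 5 libraries allow here, so they say nothing about stability. Depth limits Vaultrc5, Rny1 and Rny3.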
